A study of Mus musculus with 25 samples.

Results

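Collagens, matrix metalloproteinases (MMPs) and proteases of the ADAM and ADAMTS families were followed by DNA methylation in mouse mammary fat pads. Members were taken by gene symbol on chromosomes 1 to 19: numbered collagen chains (Col), MMPs (Mmp), ADAMs (Adam) and ADAMTS proteases with their ADAMTS-like relatives (Adamts, Adamtsl). The rule found 84 genes, 35 collagens and 49 proteases, of 16270 genes in the table, and left out 2 X-linked collagens. It used symbols and positions and no methylation value.

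Collagens are the main structural proteins of the extracellular matrix: the fibrillar ones carry tension, collagen IV forms the sheet of basement membranes, and collagen VI forms beaded filaments around cells such as adipocytes. MMPs and ADAMTS enzymes cut the matrix or trim its precursors, ADAMs release proteins from the cell surface, and in the mammary gland this turnover accompanies the growth and regression of ducts and fat. Methylation of a cytosine followed by a guanine (a CpG) is usually low at active promoters and in CpG islands and high along gene bodies, and its level differs between cell types.

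Reduced representation bisulfite sequencing (RRBS) cuts DNA with MspI, selects short fragments rich in CpGs and reads each CpG as methylated or not. Wild-type C57BL/6N mice ate D12450J as the control diet, or became obese on D12492, in which fat supplies 60%, and then stayed obese or lost weight. All mice, controls included, had E0771 mouse mammary cancer cells injected into the 4th mammary fat pad at 25 weeks, and the DNA came from the contralateral pad, a mixed tissue. The sample labels also name that cell line and its cell type, although they give the tissue as the contralateral normal one. Every sample title also contains the word tumor.

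The groups were MCR (a Mediterranean-style diet under 30% calorie restriction, 3 mice), LFCR (a low-fat diet under 30% calorie restriction, 4 mice), LFD (unrestricted low-fat diet, 3 mice), ICR (intermittent calorie restriction, 5 mice), 1 obese mouse kept as a value without a test, and Control (5 mice). Every weight-loss group had been obese before, so that earlier obesity and the diet that followed cannot be told apart, and all comparisons with Control share the same 5 mice. In bulk tissue, a change in the share of cells of a type and a change within cells cannot be told apart.

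Of 25 libraries, 4 stood apart and entered no comparison: 1 LFD and 3 obese mice. At the 91 member CpGs below 5% in Control, those 4 libraries averaged 50.6% to 53.1%, against 0.984% to 2.18% in the other 21. Read depth per library is unknown here, since the values used are methylation fractions. The average coverage of the members' CpGs had a median of 33.5 reads and quartiles of 20.5 and 59.7 reads.

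Of 2969 member CpGs with an average coverage of at least 10 reads, 1640 had a value in at least 3 mice of each group and were tested, 964 in collagens and 676 in proteases. They gave 15 promoters and 49 bodies with at least 3 CpGs, in 50 genes; 12 genes had only 1 or 2 tested CpGs and 22 had none, among them Adam17, which sheds TNF from cells. "Promoter" is the submitters' annotation of the CpG (upstream region, 5' UTR or 1st exon) and reaches well into some genes. A region's level in a mouse is the mean of its CpGs, with each CpG centred on its mean over mice so that a missing CpG does not shift the level. Each class was fitted over the whole table with limma, 1 term per group, two-sided, and a call is an adjusted p (Benjamini-Hochberg over all features of the class) below 0.05.

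RefSeq promoters of build GRCm38.p6 held 57 of the 84 genes, and their 300-base windows had a median of 17 CG pairs against 7 over 32851 windows of all genes. The stretches of 30 bases below show measured CpGs close to a RefSeq start, 5′ to 3′ on the gene's strand. They come from 2 genes whose promoters fell in MCR mice (Col9a2 and Col18a1) and 2 whose promoters stayed near 0 (Col13a1 and Mmp15). Capitals mark the measured CG.

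Col9a2, chr4:121039456-121039485, plus strand: ccgtacccCGagatgccccCGggacttccc

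Col9a2, chr4:121039535-121039564, plus strand: aagatccgcccctgaccgggCGgagctgga

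Col18a1, chr10:77113695-77113724, minus strand: ctccaggaccacaggagccggcccagCGca

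Col13a1, chr10:61979106-61979135, minus strand: cgctcatccgatccgcgcggccgcgcCGgc

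Mmp15, chr8:95352269-95352298, plus strand: gagtagggctgcggagccaaactcgcCGgg

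The first Col9a2 stretch runs from -110 to -81 relative to the start and the second from -31 to -2. The Col9a2 CG at -91 had 6.46% methylation in MCR and 12.9% in Control mice (adjusted p = 0.023, limma), and the CG at -11 had 11.6% in MCR and 23.9% in Control mice (adjusted p = 0.0233, limma). The Col18a1 CG, 8 bases past a RefSeq start inside the gene, had 44.8% in MCR and 71.0% in Control mice, with an adjusted p of 0.0541 by limma. The CGs of Col13a1, a transmembrane collagen, and Mmp15, a membrane-type MMP, stood near 0: 1.33% in MCR and 1.26% in Control mice at Col13a1, and 0% in MCR and 0.282% in Control mice at Mmp15.

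Averaged over CpGs, both families had lower methylation in MCR than in Control mice, in promoters and along bodies, and so did most other genes. Collagen promoters averaged 19.3% ± 0.979 in MCR (SD, n = 3) and 33.0% ± 2.41 in Control mice (SD, n = 5) over 51 CpGs, and all promoters 28.6% in MCR and 35.8% in Control mice. Collagen bodies averaged 58.6% ± 0.427 in MCR and 70.6% ± 1.55 in Control mice. Protease bodies averaged 44.4% ± 0.59 in MCR and 51.5% ± 1.15 in Control mice, and all bodies 50.8% in MCR and 60.5% in Control mice. The other groups lay between, and collagen bodies averaged 62.8% in LFCR, 64.8% in LFD, 66.7% in ICR and 68.3% in the obese mouse. Each CpG counts alike in these means, so genes with many tested CpGs weigh more. Among promoters the largest were Mmp14 (20 CpGs, MCR minus Control -22.7 points) and Col18a1 (13 CpGs, -30.8 points).

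Among collagen promoters, 5 of 7 fell in MCR mice and none rose, and among protease promoters 3 of 8 fell and none rose. Over all 2792 promoters tested, 43.2% fell and 4.26% rose, so the protease share lies near the background. The median difference was -9.45 percentage points over the collagen promoters, -2.52 over the protease promoters and -3.78 over all promoters. These promoter values are not matched for the level in Control mice. Below 10% in Control mice lay 956 of all promoters, of which 13.4% fell, and 1 collagen promoter. At 10% to 30%, 46.9% of all promoters fell, and the median was -8.70 points over 4 collagen promoters and -4.81 over all. Every MCR mouse lay below every Control mouse in 4 of 7 collagen and 3 of 8 protease promoters, against 41.5% of all promoters.

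Col18a1, the collagen XVIII chain from which endostatin is cut, had the largest promoter difference of the members. Its 13 CpGs (chr10:77113401-77113697) lie 8 to 304 bases past a RefSeq start inside the gene, whose span on the minus strand begins at 77166530. They had 37.5%, 39.3% and 39.2% in MCR mice, against 69.4%, 81.1%, 70.5%, 62.0% and 64.6% in Control mice. Every MCR mouse lay below every Control mouse, and the difference was -30.8 points (SE 7.2, adjusted p = 0.00265, limma). The promoter stood at 38.0%, 30.0%, 48.9% and 59.9% in LFCR mice, 33.6%, 66.4% and 50.9% in LFD mice, 66.3%, 45%, 52.9%, 54.3% and 63.9% in ICR mice, and 64.4% in the obese mouse. Single LFCR and LFD mice stood below all MCR mice, and 1 LFD mouse stood within the Control range.

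Col7a1, the collagen of the fibrils that anchor epithelium to its stroma, had 15.0%, 16.2% and 12% over 9 promoter CpGs in MCR mice, against 27.9%, 30.4%, 29.6%, 26.3% and 29.4% in Control mice. The groups did not overlap (14.4% ± 2.19 against 28.7% ± 1.63, SD; adjusted p = 0.00105, limma). In LFCR mice it stood at 16.9%, 17.8%, 17.1% and 26.4%. The other called collagen promoters belonged to cartilage-type collagens. Col9a2, a chain of collagen IX, had 8.55% ± 0.796 in MCR (n = 3) and 18% ± 4.4 in Control mice (n = 5; adjusted p = 0.005, limma). Col9a3, its partner chain, had 8.61% ± 1.06 in MCR and 16.6% ± 2.1 in Control mice over 7 CpGs in an island (adjusted p = 0.00861, limma).

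Col11a2, a minor fibrillar chain, had 22.0% ± 5.5 in MCR and 32.8% ± 4.53 in Control mice (adjusted p = 0.0154, limma), a call that ended without MCR mouse 85 (adjusted p = 0.0828) or 96 (0.0591). Col5a1, the chain that sets the width of collagen I fibrils, differed by -2.2 points (adjusted p = 0.154, limma) over 6 CpGs annotated as promoter that span 143579 bases. The Col13a1 promoter differed by 0.4 points (adjusted p = 0.601, limma).

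Mmp14 encodes MT1-MMP, a collagenase held in the cell membrane that also activates the secreted gelatinase Mmp2. Its 20 CpGs in the 1st exon and beyond (chr14:54431858-54432959, 260 to 1361 bases from the start) had 6.41%, 10.7% and 9.51% in MCR mice, against 31.0%, 42.6%, 28.2%, 27.2% and 28.8% in Control mice. The difference was -22.7 points (SE 5.2, adjusted p = 0.00254, limma), without overlap. Values were 9.98%, 7.56%, 22.5% and 29.8% in LFCR mice, 10.2%, 20.6% and 15.8% in LFD mice, 24.6%, 8.39%, 21%, 26.1% and 30.3% in ICR mice, and 26.2% in the obese mouse. Single mice of the LFCR, LFD and ICR groups therefore stood as low as the MCR mice.

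Adamts4, an aggrecanase, had 65.6%, 49.1% and 61.7% over 6 promoter CpGs in MCR mice, against 75%, 84.0%, 80.0%, 79.9% and 76.0% in Control mice (adjusted p = 0.0149, limma). Without MCR mouse 95 the difference was -15.3 points with an adjusted p of 0.0938. Mmp9, a secreted gelatinase, had 73.2% ± 2.65 over 4 CpGs in MCR (SD, n = 3) and 82.3% ± 3.51 in Control mice (SD, n = 5; adjusted p = 0.0178, limma), a call that ended without MCR mouse 85 (0.0543) or 95 (0.0769). The CpGs annotated as promoter in both genes lie within the RefSeq spans. They are chr1:171252725-171252855 in Adamts4 (span from 171250129) and chr2:164947117-164947246 in Mmp9 (span from 164940326).

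Promoter differences that did not pass were -3.3 points at Adam33, an ADAM linked to human asthma (adjusted p = 0.0653; 0.0353 without MCR mouse 96 and 0.0452 without Control mouse 1), -1.8 at Mmp2 (0.745), -0.5 at Mmp15 (0.536), 0.8 at the procollagen protease Adamts2 (0.403) and 3.7 at the stromal Mmp11 (0.169), all by limma.

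**Figure D1:**
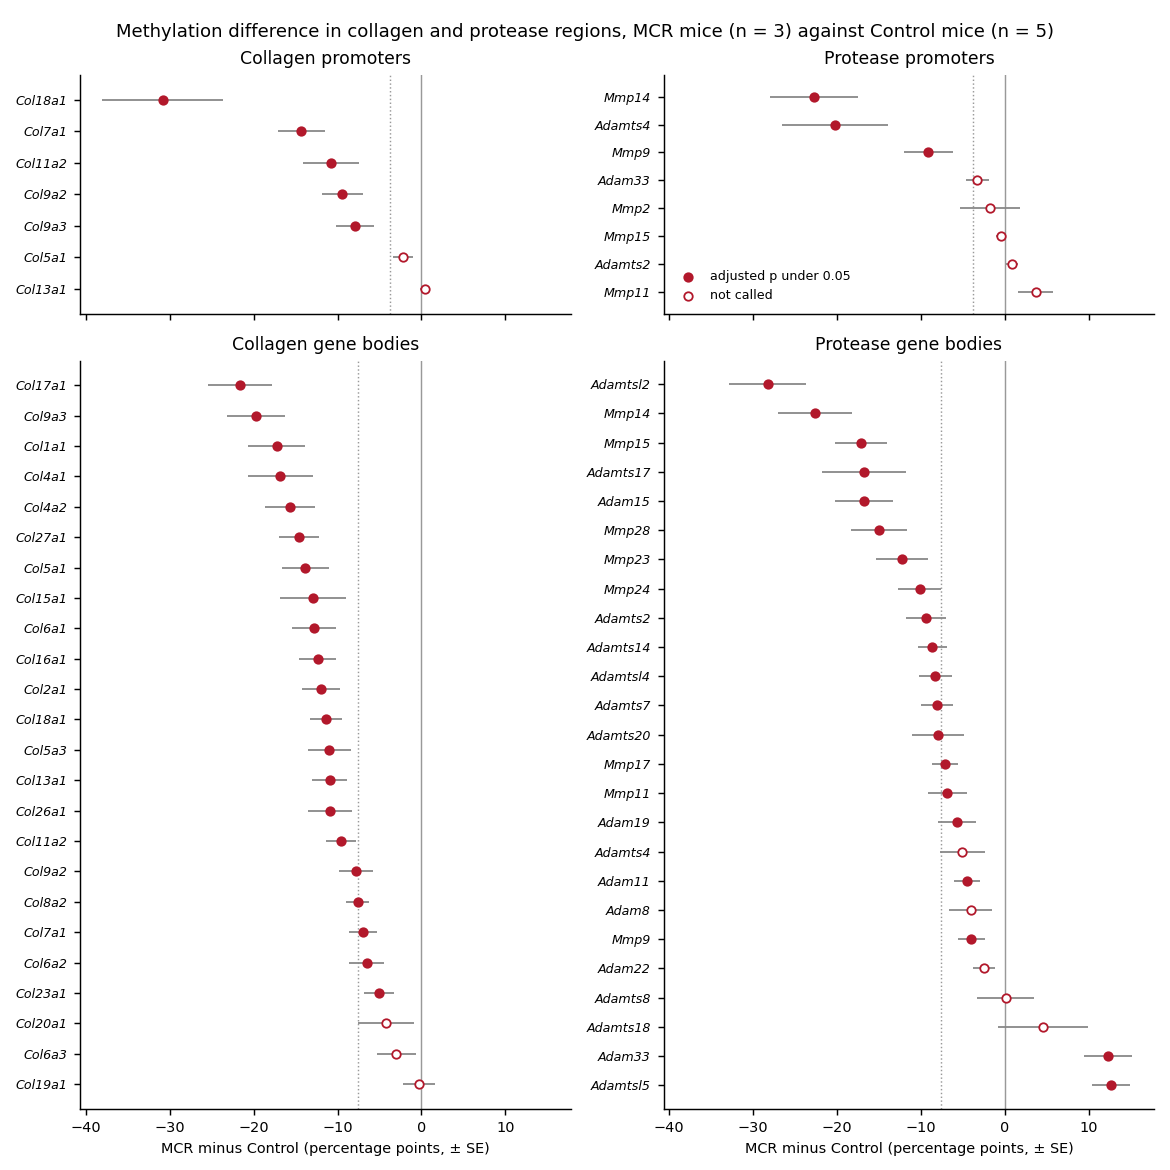
Difference in methylation between MCR and Control mice, in percentage points with its standard error, for each promoter and body of the collagens and proteases. Filled points have an adjusted p below 0.05 and the dotted line is the median of all promoters or bodies; all collagen bodies lie to the left of 0, while Adam33 and Adamtsl5 bodies lie to its right.

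Along gene bodies, 21 of 24 collagens fell in MCR mice and none rose, and 18 of 25 proteases fell and 2 rose. Of all 5556 bodies, 61% fell and 4.19% rose. The medians were -11.2 points over collagen bodies, -7.97 over protease bodies and -7.58 over all bodies. These shares and medians are not matched for the level in Control mice. At 70% to 90% in Control mice, 70.2% of all bodies fell, and the median was -11.4 points over 15 collagen bodies and -9.69 over all. At 50% to 70%, 73% of all bodies fell, and the median was -12.4 points over 6 collagen bodies and -9.37 over all. Every MCR mouse lay below every Control mouse in 21 of 24 collagen and 15 of 25 protease bodies, against 57.3% of all bodies, and above every Control mouse in 3 protease bodies, against 3.85% of all bodies. By role, all 6 fibrillar collagens, both collagen IV chains, all 3 transmembrane collagens and both multiplexins fell, and 3 of 5 collagens that sit on fibrils (FACITs) and 2 of 3 collagen VI chains did.

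Col1a1, the main chain of collagen I, had 46.0%, 44.9% and 42.9% over 43 body CpGs (chr11:94937299-94950408) in MCR mice, against 64.5%, 65.0%, 59.4%, 60.5% and 59.8% in Control mice. The groups were far apart for their spread, at -17.2 points (SE 3.4, adjusted p = 0.000584, limma). It had 42.2%, 44.2%, 55.1% and 58.9% in LFCR mice, 48.6%, 59.3% and 55.3% in LFD mice, 54.4%, 49.5%, 57.7%, 54.5% and 59.7% in ICR mice, and 58.2% in the obese mouse. LFCR mice 63 and 67 stood with the MCR mice, and 69 and 72 between them and Control.

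The neighbouring collagen IV genes of basement membranes both fell. Col4a2 had 60.7%, 61.5% and 60.7% over 46 CpGs in MCR mice, against 74.4%, 79.9%, 76.1%, 73.9% and 79.0% in Control mice (-15.7 points, adjusted p = 0.000518, limma). Col4a1 had 62.8%, 62.2% and 61.4% in MCR mice, against 83.6%, 77.3%, 73.0% and 81.9% in the 4 Control mice with a value (-16.8 points, adjusted p = 0.0017, limma). The MCR mice differed among themselves by less than 2 points at both genes.

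Col17a1, a transmembrane collagen of hemidesmosomes in basal epithelium, had 58.3%, 58.7% and 59.8% in MCR mice, against 83.2%, 82.0%, 75.9%, 81.8% and 79.8% in Control mice (-21.6 points, SE 3.8, adjusted p = 0.00043, limma). This was the largest collagen body difference. Col9a3 had 42.2% ± 3.1 in MCR and 62.0% ± 2.09 in Control mice (adjusted p = 0.00043, limma). Col27a1, a fibrillar collagen of cartilage, had 62.2% ± 2.42 in MCR and 76.8% ± 1.63 in Control mice, and Col5a1 had 65.0% ± 4.81 in MCR and 78.8% ± 1.43 in Control mice. The Col18a1 body fell less than its promoter, to 62.4% in MCR against 73.8% in Control mice, and Col15a1, the other multiplexin, stood at 50.6% in MCR against 63.5% in the 4 Control mice with a value.

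Collagen VI chains differed in size. Col6a1 had 69.7%, 72.9% and 69.5% in MCR mice, against 84.8%, 87.0%, 82.9%, 81.2% and 81.8% in Control mice (-12.8 points, adjusted p = 0.000749, limma). Col6a2 differed by -6.5 points (adjusted p = 0.0124, limma; 0.0817 without MCR mouse 95), and Col6a3 by -3.0 points without a call (adjusted p = 0.265). The other bodies without a call were Col20a1 at -4.3 points (0.268) and Col19a1 at -0.3 points (0.899), and the remaining called collagens differed by -5.1 points at Col23a1 to -12.4 points at Col16a1.

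**Figure D2:**
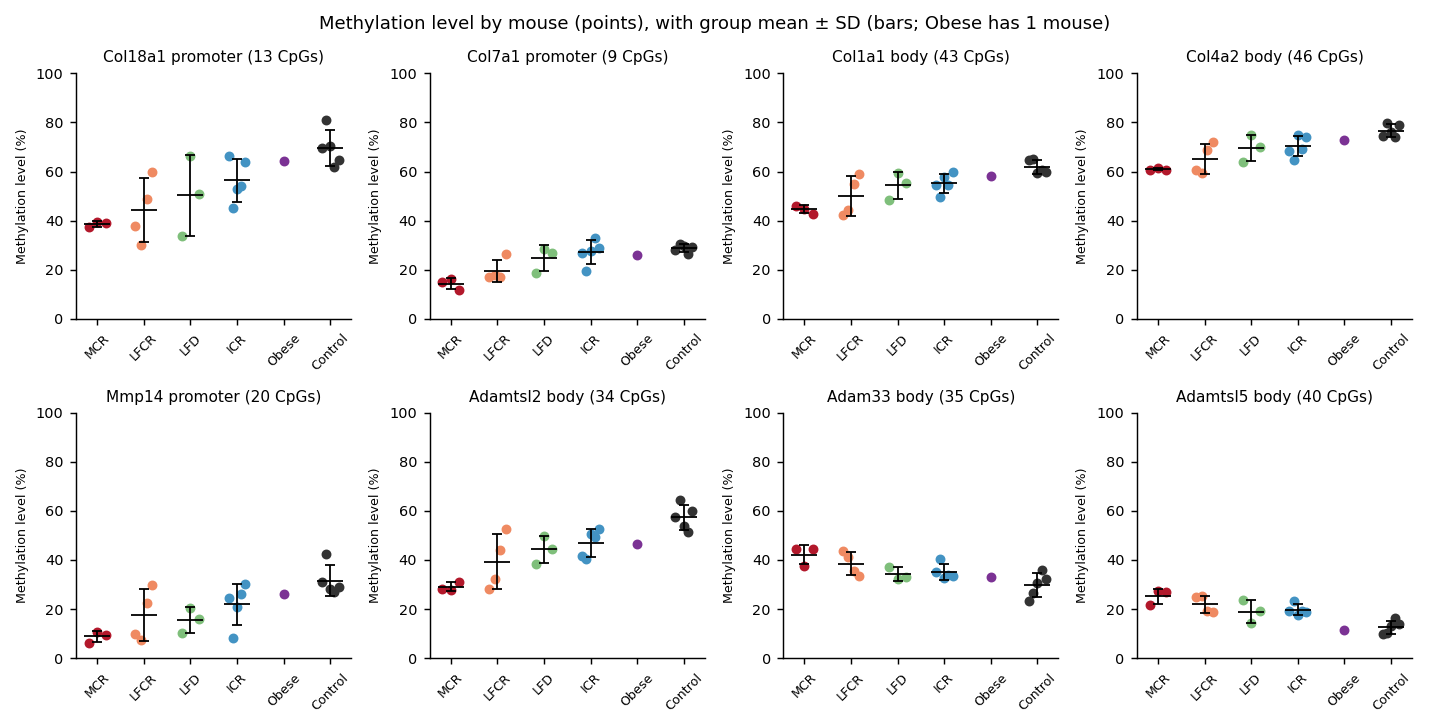
Methylation level (percent) of 3 promoters and 5 bodies in each mouse, with group mean and SD as bars, groups ordered from MCR to Control. The 3 MCR mice sit below all Control mice in the Col18a1, Col7a1 and Mmp14 promoters and the Col1a1, Col4a2 and Adamtsl2 bodies, and above them in the Adam33 and Adamtsl5 bodies.

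Protease bodies moved both ways. All 5 membrane-type MMPs fell (median -12.3 points) and all 3 secreted MMPs fell (median -6.88 points). Among ADAMs with an active site 2 of 4 fell and 1 rose, and among ADAMTS-like proteins, matrix glycoproteins without the protease domain, 2 of 3 fell and 1 rose. Both procollagen N-propeptidases measured, Adamts2 and Adamts14, fell (-9.4 and -8.6 points). Falls were called in 1 of 2 ADAMs without an active site, 1 of 3 ADAMTS that cleave proteoglycans and 2 of 3 other ADAMTS. Of all bodies, 61% fell and 4.19% rose, and these small groups were not tested against that share.

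Adamtsl2, which binds fibrillin and whose mutation causes geleophysic dysplasia in humans, had the largest body difference. Its 34 CpGs (chr2:27084006-27104430) had 28.4%, 27.8% and 31.2% in MCR mice, against 57.5%, 64.3%, 53.8%, 51.5% and 60.1% in Control mice. The difference was -28.3 points (SE 4.6, adjusted p = 0.000415, limma), with no overlap. LFCR mice had 28.2%, 32.1%, 44.0% and 52.7%, LFD mice 38.5%, 49.8% and 44.6%, ICR mice 41.5%, 40.4%, 50.6%, 49.2% and 52.8%, and the obese mouse 46.6%.

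The Mmp14 body had 43.4%, 38.7% and 40.5% in MCR mice, against 63.8%, 71.2%, 64.5%, 54.1% and 63.7% in Control mice (-22.6 points, adjusted p = 0.000576, limma), close to the fall of its promoter. Mmp15, another membrane-type enzyme, had 43.4% in MCR and 60.5% in Control mice (-17.1 points, adjusted p = 0.000457, limma), while its promoter stayed near 0 in both groups. Adam15, which carries an integrin-binding motif, had 33.0%, 29.6% and 28.1% in MCR mice, against 47.4%, 50.3%, 46.6%, 44.1% and 46.5% in Control mice (adjusted p = 0.000732, limma). Adamts17, without a value in Control mouse 1, differed by -16.8 points (0.00909) and Mmp28, the secreted epilysin, by -15.0 points (0.00121).

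Smaller called falls were -5.7 points at Adam19, without a value in Control mouse 1 (adjusted p = 0.0363), -4.0 at Mmp9 (0.0351), -6.9 at Mmp11 (0.0155), -8.0 at Adamts20 (0.0307) and -4.5 at Adam11 (0.0172), by limma, and each of these 5 calls rests on single mice. The Adam19 call ended without MCR mouse 85 or 96 or Control mouse 2, 10 or 13 (adjusted p of 0.0506 to 0.171), and the Mmp9 call without MCR mouse 95 or 96 or Control mouse 1, 2 or 13 (0.0555 to 0.154). The Mmp11 call ended without MCR mouse 85 or 96 (0.0714 and 0.0669) and the Adam11 call without MCR mouse 95 (0.0857). Adamts20 rested on 3 CpGs, and its call ended without MCR mouse 85 or 96 or Control mouse 5, 10 or 13 (0.0527 to 0.308). No call was made at Adamts4 (-5.1 points, 0.109; -7.78 points and 0.0309 without MCR mouse 95), at Adam8, a leukocyte ADAM (-4.1 points, 0.174), or at Adamts18 (4.5 points).

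The 2 bodies that rose were low in Control mice, in the range of 10% to 30%, where 13.9% of all bodies rose. Adamtsl5, an ADAMTS-like glycoprotein that binds fibrillin, had 21.8%, 27.2% and 26.9% over 40 CpGs (chr10:80341889-80348006) in MCR mice, against 10.0%, 10.2%, 12.9%, 16.3% and 14% in Control mice. Every MCR mouse lay above every Control mouse, by 12.6 points on average (SE 2.3, adjusted p = 0.00043, limma). Levels were 25.0%, 25.1%, 19.4% and 18.7% in LFCR mice, 23.5%, 14.3% and 19.2% in LFD mice, 19.3%, 23.4%, 17.7%, 19.4% and 18.9% in ICR mice, and 11.4% in the obese mouse. All LFCR and ICR mice also lay above all Control mice, and the obese mouse lay among them.

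Adam33 had 44.4%, 37.6% and 44.3% over 35 body CpGs in MCR mice, against 23.3%, 26.7%, 30.8%, 36.1% and 32.1% in Control mice (12.3 points, SE 2.9, adjusted p = 0.00167, limma). The groups did not overlap, with 37.6% in the lowest MCR mouse and 36.1% in the highest Control mouse. It had 43.6%, 41.3%, 35.6% and 33.5% in LFCR mice, 37.3%, 32.2% and 33.3% in LFD mice, 34.9%, 40.5%, 32.6%, 34.0% and 33.6% in ICR mice, and 33.1% in the obese mouse.

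**Figure D3:**
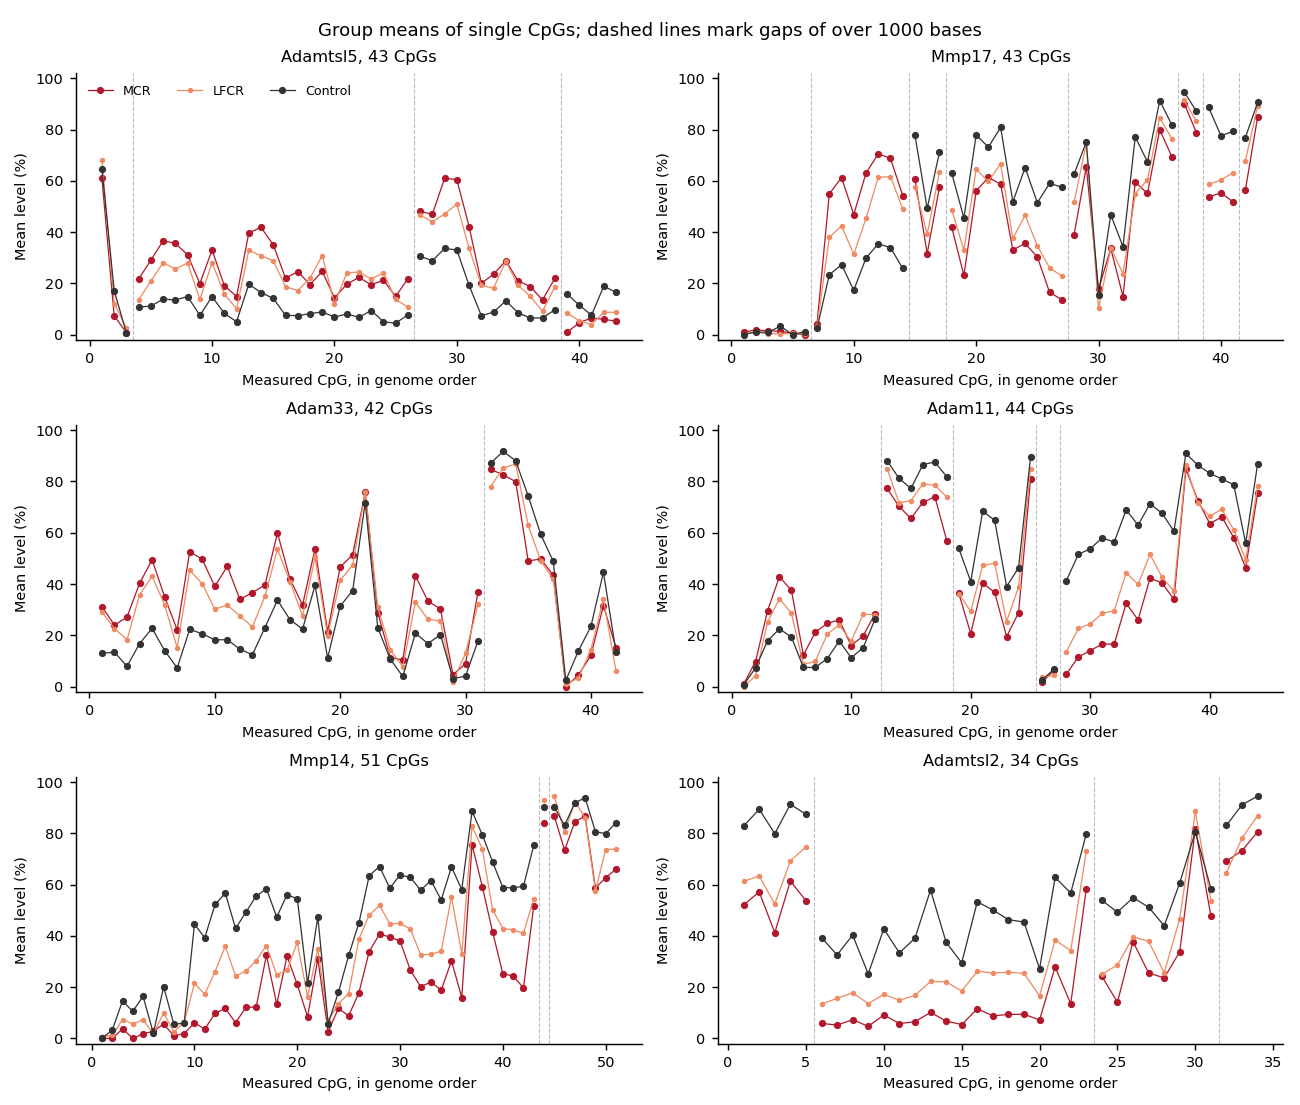
Group means of single CpGs (percent methylated) in genome order in Adamtsl5, Mmp17, Adam33, Adam11, Mmp14 and Adamtsl2 for MCR, LFCR and Control mice, with dashed lines at gaps over 1000 bases. In Adamtsl5, Mmp17 and Adam33 the MCR line runs above the Control line over some stretches and below it over others, and in Mmp14 and Adamtsl2 it runs below almost throughout.

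In collagens 398 of 964 CpGs (41.3%) fell and 16 (1.66%) rose in MCR mice, and in proteases 241 of 676 (35.7%) fell and 76 (11.2%) rose. Of all 129215 CpGs, 32.8% fell and 4.54% rose. These shares are not matched for the level in Control mice. The rises in proteases were held by few genes: 56 of the 76 lay in Adamtsl5 (28), Adam33 (21) and Mmp17 (7). Outside these 3 genes, 20 of 548 protease CpGs (3.65%) rose. The 3 genes were chosen because they held the most rises, which lowers that share by construction, so it cannot be set against the 4.54% of all CpGs.

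The Control values that set the ranges of starting level below also enter the difference, so that low ranges favour rises by construction and only shares within a range can be set side by side. Of 112 protease CpGs at 10% to 30% in Control mice, 40 rose (35.7%) and 22 fell (19.6%), against 14.3% and 23.5% over all CpGs of that range, and 31 of the 40 lay in the same 3 genes. Among collagen CpGs of that range 5.19% rose and 45.5% fell. Of 441 collagen CpGs at 70% to 90% in Control mice 43.5% fell, against 44.7% over all CpGs of that range. The shares that fell were 52.2% of collagen and 53.6% of all CpGs at 50% to 70%, and 31% and 29.7% above 90%. They were 53.2% and 36.6% at 30% to 50%, and 2.17% and 1.35% below 10%. In CpG islands, 23.1% of 91 protease CpGs rose and 0 of 44 collagen CpGs did, against 3.5% over all island CpGs. CpGs of 1 gene sit together and are not independent.

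Clusters of at least 5 CpGs with gaps of at most 200 bases, a unit added after the data were seen, placed both directions within single genes. Of 53 collagen clusters 39 fell and 2 rose, and of 44 protease clusters 28 fell and 7 rose, against 60.8% and 8.41% of 7360 clusters in all. Genes with clusters in both directions were 2 of 19 collagens (10.5%) and 5 of 18 proteases (27.8%), against 6.92% of 3670 genes. Of genes with at least 2 clusters they were 2 of 11 collagens and 5 of 13 proteases, against 17.1% of 1488 genes. Of the 9 clusters that rose, 7 were below 25% in Control mice.

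Mmp17, a membrane-type MMP held by a lipid anchor, carried the widest contrast. A cluster of 8 CpGs in a CpG island shore (chr5:129586468-129586818) had 54.1%, 54.2% and 50.7% in MCR mice, against 22.8%, 18.7%, 26.8%, 32.2% and 21.8% in Control mice (28.5 points, SE 4.93, adjusted p = 0.000336, limma). A cluster of 10 CpGs further along the same body (chr5:129590711-129590972) had 39.0%, 36.3% and 35.7% in MCR mice, against 61.2%, 70.7%, 67.2%, 51.6% and 62.1% in Control mice (-25.5 points, SE 4.54, adjusted p = 0.000361, limma). MCR mice were thus above all Control mice in the first cluster and below all of them in the second, which the body mean of -7.1 points does not show.

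The same 2 clusters of Mmp17 varied among LFCR mice, with 50.8%, 46.8%, 35.6% and 33.0% in the first (17.1 points above Control, adjusted p = 0.01) and 35.7%, 37.9%, 52.4% and 50.3% in the second (-18.5 points, adjusted p = 0.00732, limma). Mice 63 and 67 lay nearest to MCR in both.

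In Adamtsl5 a cluster of 23 island CpGs (chr10:80341889-80342382) had 19.3%, 28.6% and 28.1% in MCR mice, against 6.14%, 7.43%, 9.75%, 14.2% and 12.7% in Control mice (15.3 points, SE 2.84, adjusted p = 0.000431, limma). A 2nd cluster of 12 CpGs (chr10:80344968-80345287) had 33.9% ± 1.05 in MCR and 17.2% ± 4.05 in Control mice (adjusted p = 0.000458, limma). Near the start of the gene, 442 to 760 bases in, a cluster of 5 CpGs in an island shore fell, to 4.68% ± 2.15 in MCR against 14.1% ± 2.95 in Control mice (adjusted p = 0.000756, limma). The gene's 2 inner clusters and its start therefore moved in opposite directions.

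Adam33 had the same arrangement. Its cluster of 24 CpGs (chr2:131054866-131055425) had 43.8%, 33.2% and 41.8% in MCR mice, against 13.9%, 18.5%, 22.9%, 31.1% and 24.3% in Control mice (17.5 points, adjusted p = 0.00121, limma). Its 5 CpGs in the 1st exon island (chr2:131063565-131063751) fell to 12.7% ± 1.44 in MCR against 19.6% ± 1.65 in Control mice (adjusted p = 0.00235, limma). The whole promoter of Adam33, which holds other CpGs as well, had not passed.

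Adam11, an ADAM without an active protease site that is known from the nervous system, rose in an island shore (chr11:102762269-102762579), to 24.4% ± 2.44 in MCR against 14.8% ± 3.31 in Control mice (adjusted p = 0.00148, limma). At its 3' end (chr11:102777683-102778463) 17 CpGs had 41.5% in MCR and 68.0% in Control mice (-26.5 points, adjusted p = 0.000585, limma). Adamtsl4, mutated in human lens displacement, had 61.9% ± 0.979 in MCR and 50.4% ± 4.45 in Control mice at chr3:95684234-95684502, and 53.6% ± 0.376 in MCR and 72.8% ± 2.49 in Control mice at the neighbouring chr3:95683491-95683883 (adjusted p = 0.00486 and 0.000721, limma).

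The 2 collagen clusters that rose lay in Col13a1 and Col11a2. The Col13a1 cluster (chr10:61906493-61906721, 5 CpGs) had 37.2%, 34.0% and 32.4% in MCR mice, against 21.4%, 14.2%, 19.9%, 24.7% and 20.5% in Control mice (adjusted p = 0.00248, limma). The Col11a2 cluster (chr17:34057140-34057637) had 56.1% in MCR and 46.1% in Control mice (adjusted p = 0.0161, limma; 0.0531 without MCR mouse 85 and 0.0516 without 95).

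The deepest falls were also local. Mmp28 had a cluster of 7 CpGs (chr11:83448056-83448359) with 17.8%, 8.03% and 15.2% in MCR mice, against 69.8%, 73.2%, 57.6%, 42.2% and 66.9% in Control mice (-48.3 points, SE 9.64, adjusted p = 0.000613, limma). LFCR mice stood there at 10.5%, 14.8%, 42.5% and 50.5%. Col18a1 had 9 CpGs inside the gene, between its RefSeq starts (chr10:77151078-77151348), with 17.1%, 10.9% and 21.7% in MCR mice, against 51.3%, 64.4%, 52.9%, 49.2% and 51.3% in Control mice (adjusted p = 0.000317, limma).

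In Adamtsl2, 15 CpGs (chr2:27088412-27088586) had 3.93%, 9.18% and 9.53% in MCR mice, against 42.0%, 50.4%, 34.1%, 30.2% and 43.3% in Control mice (adjusted p = 0.000344, limma). In Col27a1, 10 CpGs (chr4:63221636-63222059) had 37.4%, 42.1% and 38.7% in MCR mice, against 73.4%, 79.9%, 73.0%, 69.0% and 74.5% in Control mice (adjusted p = 0.00033, limma). At each of these 4 clusters every MCR mouse lay below every Control mouse.

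**Figure D4:**
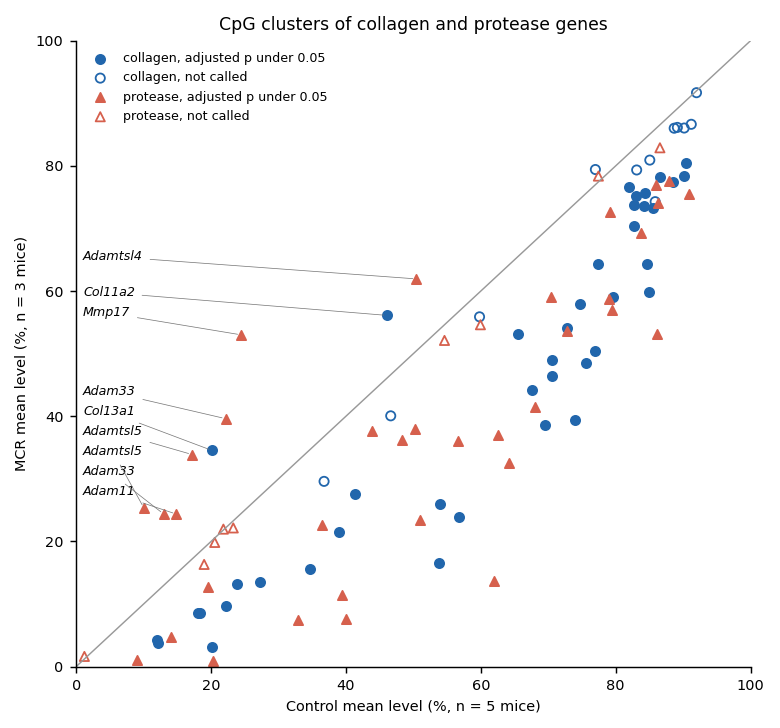
Mean methylation (percent) of 97 CpG clusters of the members in MCR mice against Control mice, with the diagonal marking equal levels. Most clusters lie below the diagonal, 67 of them with a call, and the 9 called above it are labelled by gene.

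Single CpGs reached larger differences. A CpG in the annotated body of Col5a1 (chromosome 2, 27922119) had 83.6% in MCR, 67.1% in LFCR, 39.4% in LFD, 42.2% in ICR and 30.2% in Control mice (MCR minus Control 53.4 points, SE 8.12, adjusted p = 0.000887, limma). The CpG at 27922133 had 66.4% in MCR and 23.2% in Control mice (adjusted p = 0.00305, limma). Another Col5a1 CpG, at 27954011, had 6.1% in MCR and 57.6% in Control mice. The Col5a1 body thus held CpGs that moved by over 50 points in each direction.

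The largest falls at single CpGs were in Col18a1 at 77151348 (13.4% in MCR, 69.1% in Control mice), in Col4a2 at 11416826 (32.8% in MCR, 85.2% in Control mice) and in Adamts17 at 66927885 (20.9% in MCR, 75.2% in Control mice). Besides Col5a1, rises reached 35.9 points at 83445049 in Mmp28 (52.3% in MCR, 16.4% in Control mice), 35.2 points at 129586769 in Mmp17 and 34.6 points at 61906721 in Col13a1. In Mmp28 these CpGs lie about 3 kilobases from the cluster that fell. Of 4 CpGs assigned to Mmp9 and annotated as intergenic, 3 rose: 29.0% in MCR against 16.7% in Control mice at 164940883, 48.6% against 34.4% at 164940976 and 16.6% against 7.33% at 164942751 (adjusted p = 0.0465, 0.014 and 0.0429, limma). These 3 positions lie within the RefSeq span of Mmp9 (164940326 to 164955850), despite that annotation.

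Among the other diets, LFCR had calls and LFD and ICR had none. In LFCR mice 3 of 7 collagen and 3 of 8 protease promoters fell (25% of all promoters), and 16 of 24 collagen and 11 of 25 protease bodies fell (39.8% of all bodies). The same 2 bodies rose in LFCR as in MCR mice: Adamtsl5 by 9.4 points (adjusted p = 0.0112) and Adam33 by 8.7 points (0.0181, limma), against 2.52% of all bodies. The largest LFCR falls in promoters were Col18a1 at -25.3 points (0.0179) and Mmp14 at -14.1 points (0.0421), and in bodies Adamtsl2 at -18.2 points (0.0112), Col17a1 at -13.8 points (0.0118) and Mmp23, a membrane MMP, at -13 points (0.0112).

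Of single CpGs, 127 of 964 in collagens and 90 of 676 in proteases fell in LFCR mice, and 5 and 28 rose, against 12.1% and 1.48% of all CpGs.

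These calls rest on LFCR mice 63 and 67. Without either one no member promoter, body or CpG was called in LFCR, and without both no promoter or body. Without mouse 72 the calls numbered 7 promoters, 38 bodies and 499 CpGs, against 250 CpGs with all 4 mice. Promoter calls numbered 3 without Control mouse 1 and 2 without Control mouse 2, and CpG calls 121, 18 and 130 without Control mouse 1, 2 or 13. Both mice were at or near the MCR level in the Col1a1 body. Neither the promoters nor the bodies of any member differed between MCR and LFCR mice by limma with adjustment (0 calls over all genes as well), with an unadjusted p below 0.05 at 4 of 24 collagen and 4 of 25 protease bodies (13.5% of all bodies) and at 1 of 15 promoters (10.4% of all promoters). The medians were -4.13 points over collagen, -2.12 over protease and -2.77 over all bodies, so both counts lie near the background. A missing call does not show that the diets act alike.

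For LFD and ICR, limma called no member promoter, body or CpG, nor did it with the arcsine scale or the trended, robust fit. At an unadjusted p below 0.05, LFD mice had 17 of 24 collagen and 9 of 25 protease bodies (30.8% of all bodies), and ICR mice 8 and 3 (17.7%). Of promoters, LFD mice had 2 of 7 in collagens and 3 of 8 in proteases (22.9% of all promoters), and ICR mice 1 and 1 (15.8%). Without LFD mouse 47, 11 of 49 member bodies were called in LFD, against 12.7% of all bodies. The medians were -5.52 points for collagen and -3.66 for protease bodies in LFD, and -3.67 and -2.26 in ICR mice, against -3.34 in LFD and -2.40 in ICR mice over all bodies. All LFD mice lay below all Control mice in 9 of 24 collagen and 4 of 25 protease bodies (16.5% of all bodies), and all ICR mice in 5 and 1 (6.62%).

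MCR and ICR mice could be compared directly without Control. Methylation was lower in MCR than in ICR mice in 18 of 24 collagen and 12 of 25 protease bodies and higher in none (39.2% and 1.93% of all bodies). Of promoters, Col7a1 (-12.8 points, adjusted p = 0.0225) and Col9a3 (-7.6 points, 0.0318, limma) were lower in MCR mice, against 19.4% of all promoters, and no protease promoter was; none was higher, against 1.5% of all promoters. These counts rest on single mice: bodies called numbered 30 in all but 1 without MCR mouse 95, 11 without MCR mouse 96, 17 without ICR mouse 112 and 18 without MCR mouse 85, and no promoter call was left without any 1 of these 4 mice, and 1 without ICR mouse 106. MCR and LFD mice differed in 0 member regions (0.287% of promoters and 0.018% of bodies fell), and without LFD mouse 42 in 23 of 49 member bodies, against 24.3% of all bodies. At an unadjusted p below 0.05 that comparison had 12 of 24 collagen and 11 of 25 protease bodies (31.9% of all bodies) and 3 of 7 collagen and 0 of 8 protease promoters (23.7% of all promoters).

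The level of the group means went up through MCR, LFCR, LFD, ICR and Control in 16 of 24 collagen and 9 of 25 protease bodies, against 36% of all bodies, and in 3 of 7 collagen and 1 of 8 protease promoters, against 24.5% of all promoters. The obese mouse lay below all Control mice in 10 of 24 collagen and 7 of 25 protease bodies, against 24% of all bodies, and its mean over collagen promoters, 31.2%, lay between those of ICR (28.6%) and Control mice (33.0%).

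**Figure D5:**
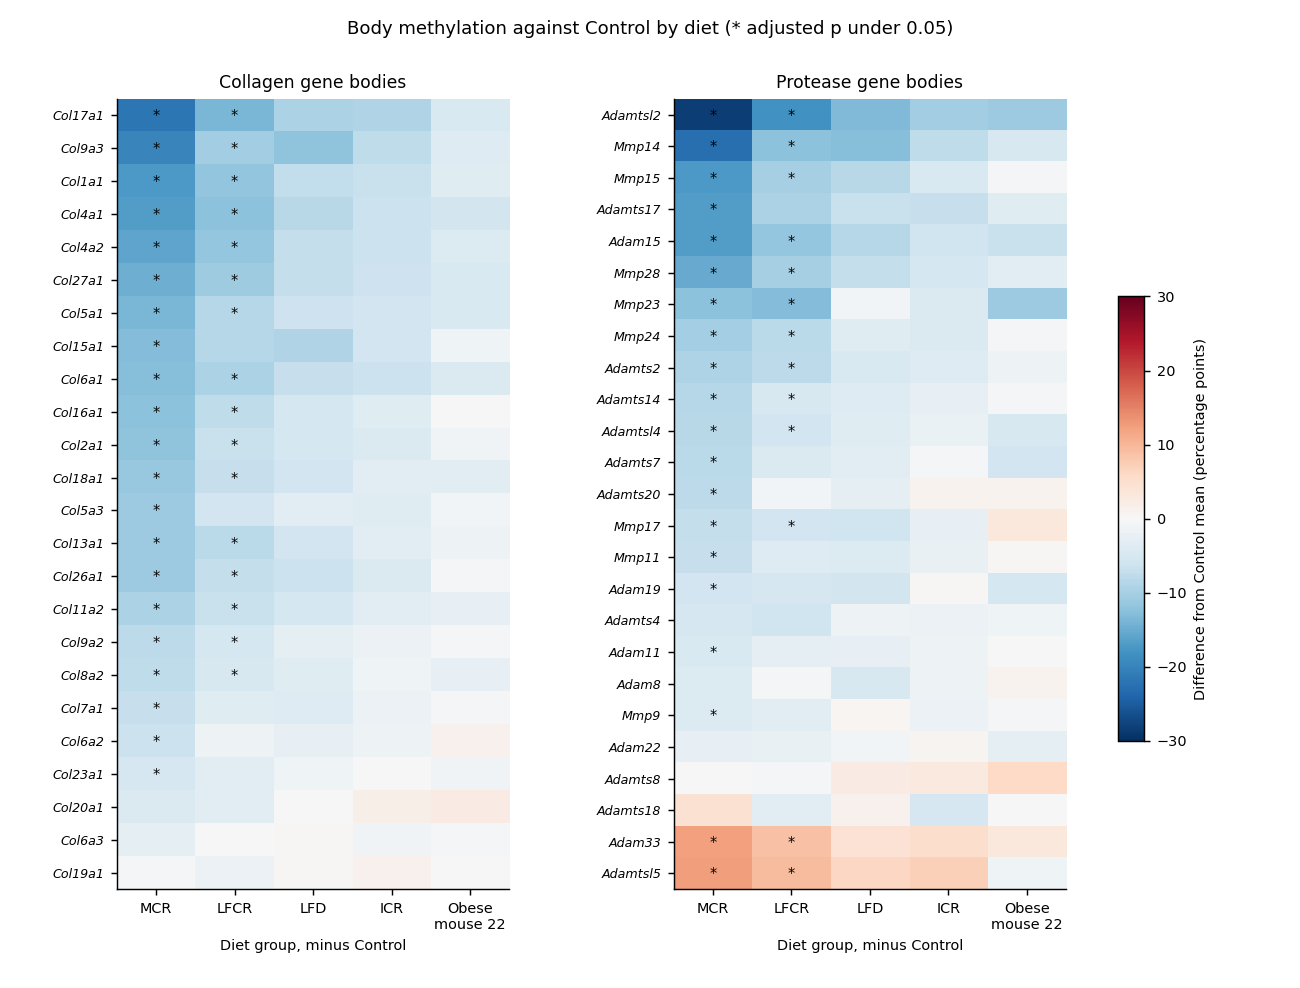
Difference of each member's body methylation from Control, in percentage points, in MCR, LFCR, LFD, ICR and the obese mouse, with an asterisk for an adjusted p below 0.05. Colour fades from MCR towards ICR for most genes, and Adamtsl5 and Adam33 are positive in all 4 diets; the obese mouse is a single value without a test.

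Genes that process, cross-link, inhibit or bind collagen were listed separately. Of 12 bodies measured among 25 processing and cross-linking genes, 9 fell in MCR mice, including the collagen chaperone Serpinh1, the propeptidase enhancer Pcolce and the lysyl hydroxylases Plod1 and Plod3, and 2 rose, the prolyl hydroxylase P4ha2 and the lysyl oxidase Loxl4. All 3 metalloproteinase inhibitors measured fell (Timp2, Spock1 and Spock2), as did 5 of 7 laminin and basement membrane genes, 7 of 10 other matrix genes and 2 of 5 collagen receptors, Ddr1 and Mrc2, while the receptor Adgrg1 rose. These shares lie on both sides of the 61% of all bodies. Of 3 processing promoters, Pcolce and Loxl3 fell and P3h4, whose body fell, rose (16.2 points, adjusted p = 0.00223, limma). Promoters fell in 1 of 2 inhibitors, 2 of 3 laminin and basement membrane genes and 3 of 5 other matrix genes. The 1 receptor promoter made no call, and 43.2% of all promoters fell.

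Markers of cell types in the pad were set beside all features. Of all bodies 61% fell and 4.19% rose, and of all promoters 43.2% fell and 4.26% rose. The promoter of Coro1a, the only leukocyte promoter measured of 20 genes, stood at 41.3% to 42.0% in MCR and 12.4% to 21.6% in Control mice, and of 5 leukocyte bodies 1 fell (Cd4) and 2 rose (Cd79b and Spi1). The list's mean body level was 59.4% to 62.3% in MCR and 50.9% to 56.1% in Control mice. Of 3 adipocyte bodies measured among 10 genes, 2 fell (Cidec and Plin1), with list means of 55.6% to 59.0% in MCR and 62.1% to 70.3% in Control mice, and no adipocyte promoter was measured. Of 5 luminal epithelial promoters among 12 genes 3 fell (Krt7, Cldn4 and Krt19; 43.2% of all promoters fell), with list means of 21% to 22.4% in MCR and 31.2% to 36.5% in Control mice. Of 6 luminal bodies 1 fell (Esr1) and 1 rose (Epcam), with overlapping list means of 46.8% to 50.7% in MCR and 49.6% to 55.4% in Control mice.

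Endothelial bodies fell in 4 of 5 genes of 8 listed, against 61% of all bodies (list means 46.7% to 47.8% in MCR and 60.8% to 68.0% in Control mice), while of 4 endothelial promoters 1 fell (Nos3) and 1 rose (Eng), with overlapping list means of 45.8% to 59.5% in MCR and 44.9% to 55.0% in Control mice. Fibroblast bodies fell in 1 of 3 (Pdgfrb) and rose in 1 (Thy1) of 8 listed, with list means of 46.1% to 49.0% in MCR and 49.9% to 61.2% in Control mice, and the 1 promoter measured, that of Pdgfrb, fell. Of 7 basal epithelial genes, the 1 body measured, Mylk, fell, and the 1 promoter measured made no call. Skeletal muscle bodies fell in 3 of 5, near the 61% of all bodies, and of 2 promoters 1 fell (Ckm) and 1 rose (Myog). The part of these markers in the collagen and protease differences was not tested.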

How the data were processed

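For RRBS of contralateral mammary fat pads, the submitters' processing notes name Bismark and mm10; versions are not given in the sources used here. The authors deposited a methylation fraction per CpG and library and an average coverage per CpG, a signal which times 21 is whole, within 1e-06, at all 283909 CpGs kept of 283974 (65 on other sequences were left out). Levels were used without weighting, as percent. CpGs needed a coverage of at least 10 and a value in at least 3 mice of each tested group. Regions took the mean of at least 3 CpGs, each centred on its mean over mice, in mice with at least 0.5 of them. limma 3.58.1 in R 4.3.3 (data.table, version 1.17.8) fitted 1 term per diet group over 21 libraries, with moderated variance (the fit itself written out, its p-values equal to limma's in a check), and was tested on simulated data. No 2 libraries shared more than 0.874% of values between 5% and 95%. The labels give mouse numbers but not litters or housing, and p-values measure the spread between these mice. The CpG annotation is the deposited one.

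Members, gene lists and tests were chosen with earlier results of these data known. Named genes are up to 4 higher and 4 lower calls of largest difference per class in MCR minus Control, those of smallest p in other diets and a list of well-known members, besides the top single CpGs; clusters were chosen after their values were seen. Coverage minimums of 5 and 20, an arcsine scale, trended robust moderation, 10 CpGs per region, promoters without the 1st exon, all 25 libraries, and leaving out each mouse were tried.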

Additional observations from a re-analysis of the deposited data

Results flagged for a closer look

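In 117 groups of 4 or 5 mice, 7 held a mouse far from the others, and chance gives about 1 in 20. The gap of that mouse to its nearest neighbour, as a share of the group's whole range, was 0.906 at the Col7a1 promoter in LFCR mouse 72 (26.4%, the others 16.9% to 17.8%), 0.859 at the Col5a1 promoter in LFCR mouse 67 (28.4%, the others 26.2% to 26.5%) and 0.843 at the Col4a1 body in ICR mouse 112 (76.1%, the others 70.9% to 71.7%). It was 0.791 at the Mmp2 promoter in ICR mouse 102 (24.3%, the others 2.82% to 7.31%), 0.752 at the Adamts4 body in Control mouse 5 (92.7%, the others 83.7% to 85.9%), 0.749 at the Mmp14 promoter in Control mouse 2 (42.6%, the others 27.2% to 31.0%) and 0.711 at the Adamtsl5 body in ICR mouse 103 (23.4%, the others 17.7% to 19.4%).

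The 4 libraries left out of the comparisons had methylation at the 91 member CpGs that were below 5% in Control mice: 50.6% in LFD mouse 46, 51.7% in obese mouse 27, 53.1% in obese mouse 28 and 51.7% in obese mouse 40, against 0.984% to 2.18% in the other 21 libraries. At the 1155 member CpGs above 50% in Control mice these 4 had 74.4% to 83.6%, against 66.3% to 83.0% in the 21.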

How the results depend on the processing

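A coverage minimum of 20, the arcsine scale and trended, robust moderation kept every count of called members within 1.5 times. A coverage minimum of 5 left the numbers of tested and called features unchanged, so it gave no separate check. With all 25 libraries the counts were 5 promoters in MCR minus Control (8 with 21 libraries), 0 promoters, 10 bodies, 117 CpGs and 37 clusters in LFCR minus Control (6, 29, 250 and 61), and 0 promoters and 0 bodies in MCR minus ICR (2 and 30). Promoters without the 1st exon, or with at least 10 CpGs, left 2 calls each in MCR and 2 each in LFCR, with fewer promoters tested, and without the 1st exon MCR minus ICR kept 1. Without LFCR mice 63 and 67 together, chosen after seeing the data, LFCR had 0 promoters and 0 bodies.

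Leaving out 1 mouse at a time gave, in MCR minus Control, 6 to 9 promoters, 37 to 40 bodies, 556 to 737 CpGs (731 with all mice) and 71 to 78 clusters (76), and in LFCR minus Control 0 to 7 promoters, 0 to 38 bodies, 0 to 499 CpGs and 27 to 78 clusters. LFCR promoters numbered 3 without Control mouse 1 and 2 without Control mouse 2, and LFCR CpGs 0 without LFCR mouse 63 or 67, 18 without Control mouse 2, 121 without Control mouse 1 and 130 without Control mouse 13. The ranges were 0 to 11 bodies in LFD minus Control, 0 to 23 in MCR minus LFD, and 0 to 3 promoters and 1 to 32 bodies in MCR minus ICR. The other comparisons stayed at 0. In MCR and LFCR minus Control, no named difference with a call turned its direction. Sign changes of differences without a call were not counted. The cause of these shifts was not tested.

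No paired analysis was possible because every mouse number occurs in 1 group only. Depth per library is unknown, so a level near 0 carries no floor, and groups of 3 to 5 mice limit what a missing call can show.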
